A study of Mus musculus with 12 samples.

Results

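Cardiac progenitors sorted as positive for both a red and a green reporter were compared with progenitors sorted as positive for the green reporter alone, on 6 of the 12 arrays of the series. The 3 double-positive arrays and the 3 green-only arrays were chosen by their titles and paired by the experiment letter (A, B or C), and the comparison runs over all 13700 annotated genes that passed a filter on low intensity. All cells came from mouse embryonic stem cells that had formed embryoid bodies in hanging drops and were dissociated on day 6, when flow sorting separated them by colour. Every cell carried 2 transgenes, a dsRed driven by a reporter specific to the second heart field and an eGFP driven by a cardiac-specific enhancer. Double-positive cells were positive for dsRed and eGFP, and green-only cells were negative for dsRed and positive for eGFP. In the published form of this dual-colour system the red reporter reads an anterior heart field enhancer of Mef2c and the green reporter a cardiac enhancer of Nkx2-5. The other 6 arrays held red-only cells (dsRed positive, eGFP negative) and double-negative cells (neither), again 3 each, and shared the estimate of the spread. No untreated or wild-type cells were set beside these sorts, the number of stem cell clones was not given, and neither fluorescent protein has a probe set in the annotation used. The labels do not say whether the 3 letters were separate cultures, so the p-values measure the spread between these arrays.

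The heart forms from mesoderm that passes through a progenitor stage marked by the transcription factors Isl1, Nkx2-5 and Mef2c. The first heart field gives most of the left ventricle, and the second heart field adds the right ventricle and outflow tract. Progenitors of this kind can also give smooth muscle and endothelium, and a progenitor that commits to muscle switches on sarcomere genes under factors such as Gata4, Mef2c, Nkx2-5 and myocardin, the last acting through serum response factor at CArG boxes.

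Windows from 250 bases before to 50 bases after the gene start, taken from RefSeq on mouse build GRCm38.p6, were read for 5 muscle genes that rose in double-positive cells. They are shown because they hold the elements named above. Capitals mark a CArG box in Asb2 (Z-disc protein degradation) and Myom1 (M-band crosslinker), a MEF2 site in Mybpc3 (myosin-binding protein C) and Synpo2l (Z-disc actin binding), and the letters TATAAA, on the opposite strand, in Smyd1 (muscle histone methyltransferase).
Asb2, chr12:103355952-103356251, minus strand: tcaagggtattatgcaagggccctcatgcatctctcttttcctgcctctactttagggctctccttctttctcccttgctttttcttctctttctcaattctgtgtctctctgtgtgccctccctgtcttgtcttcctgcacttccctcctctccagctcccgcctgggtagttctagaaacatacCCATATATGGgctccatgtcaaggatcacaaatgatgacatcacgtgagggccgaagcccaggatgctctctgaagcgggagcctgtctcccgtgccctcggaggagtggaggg
Myom1, chr17:71019307-71019606, plus strand: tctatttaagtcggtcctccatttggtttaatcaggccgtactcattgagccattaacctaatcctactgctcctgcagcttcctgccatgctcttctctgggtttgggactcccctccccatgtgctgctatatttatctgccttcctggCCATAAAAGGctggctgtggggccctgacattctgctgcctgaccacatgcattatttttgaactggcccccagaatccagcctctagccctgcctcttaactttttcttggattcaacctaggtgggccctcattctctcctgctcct
Mybpc3, chr2:91117894-91118193, plus strand: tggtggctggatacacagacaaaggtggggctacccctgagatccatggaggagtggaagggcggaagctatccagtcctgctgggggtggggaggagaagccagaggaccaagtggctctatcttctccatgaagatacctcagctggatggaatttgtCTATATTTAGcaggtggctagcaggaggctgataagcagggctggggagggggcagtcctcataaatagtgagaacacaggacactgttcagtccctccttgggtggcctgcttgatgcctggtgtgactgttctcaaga
Synpo2l, chr14:20668305-20668604, minus strand: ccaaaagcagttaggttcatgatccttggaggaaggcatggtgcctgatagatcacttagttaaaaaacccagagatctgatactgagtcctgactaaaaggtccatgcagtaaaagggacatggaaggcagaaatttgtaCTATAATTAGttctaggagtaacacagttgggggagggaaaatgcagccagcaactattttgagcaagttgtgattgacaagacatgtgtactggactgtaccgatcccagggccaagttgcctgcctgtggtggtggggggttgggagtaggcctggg
Smyd1, chr6:71262232-71262531, minus strand: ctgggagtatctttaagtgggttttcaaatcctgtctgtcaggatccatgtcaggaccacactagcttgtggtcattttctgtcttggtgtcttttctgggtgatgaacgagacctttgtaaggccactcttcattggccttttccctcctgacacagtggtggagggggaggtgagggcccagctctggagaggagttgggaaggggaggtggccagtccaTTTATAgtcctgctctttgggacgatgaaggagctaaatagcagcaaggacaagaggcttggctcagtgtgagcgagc
The box began 64 bases before the start of Asb2 and 99 bases before that of Myom1, and the MEF2 site 90 bases before the start of Mybpc3 and 109 before that of Synpo2l. The TATA letters of Smyd1 began 28 bases before its start. Asb2 and Synpo2l each have another window, which is not shown. Both strands were searched for the CArG box, the MEF2 site and the letters TATAAA, which a MEF2 site can overlap. The letters AGATAA, which hold the core that Gata4 binds, were searched in the same way. Over all 32851 windows, 1.63% held a CArG box, 3.19% a MEF2 site, 13.6% the TATA letters and 11.2% the Gata4 core. Of the 31 sarcomere genes that rose, 28 had a window, and a gene with more than 1 window counted once if any of them matched. A CArG box lay in the windows of 6 of these 28 genes, a MEF2 site in 4, the TATA letters in 4 and the Gata4 core in 6. Of 29 epithelial and endoderm genes that fell, 23 had a window, with a MEF2 site in 1, the TATA letters in 5 and the Gata4 core in 3, and no CArG box in these letters. A match is a description of the letters and shows no binding.

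The green-only array of experiment A deviated most from its population mean. Whether the quality of that array or the cells on it made the difference was not tested. The SD of that array's log2 deviations from the population means was 0.224, with 0.125 to 0.179 on the other 11 arrays, and it received the lowest array weight, 0.506. Results are therefore given with and without it. Pearson correlations across genes were 0.990 to 0.994 among double-positive arrays, 0.979 to 0.991 among green-only arrays and 0.964 to 0.986 between the populations. The ratio of the 3′ to the 5′ actin control probe set, a sign of RNA integrity, was 1.55, 1.47 and 1.40 on the double-positive arrays of experiments A, B and C and 1.35, 1.44 and 1.33 on the green-only arrays. It was higher in double-positive cells in each experiment. The same ratio for Gapdh was 0.945, 0.942 and 0.952 on the double-positive arrays and 0.968, 1.01 and 0.883 on the green-only arrays, so it was lower in double-positive cells in A and B and higher in C. The part of these ratios in the results below was not tested. Arrays have no read depth, and 3 arrays per population limit the precision.

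Double-positive cells carried more RNA of muscle genes than green-only cells, and less RNA of epithelial, endoderm and endothelial genes. With limma's moderated test and Benjamini-Hochberg adjustment over all genes, 1148 of 13700 genes passed an adjusted p of 0.05 (8.38%). Of these 516 were higher (3.77% of genes tested) and 632 lower (4.61%) in double-positive cells. At least 2-fold differences made up 86 of the higher and 155 of the lower genes. For 1047 of the 1148 genes no array of one population reached the range of the other, and all 3 experiments gave the same sign. Of all 13700 genes, 3072 had no such overlap. The calls were made on these same arrays, so a lack of overlap is no separate evidence for a called gene. The median difference over all genes was 0.005 on the log2 scale.

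**Figure D1:**
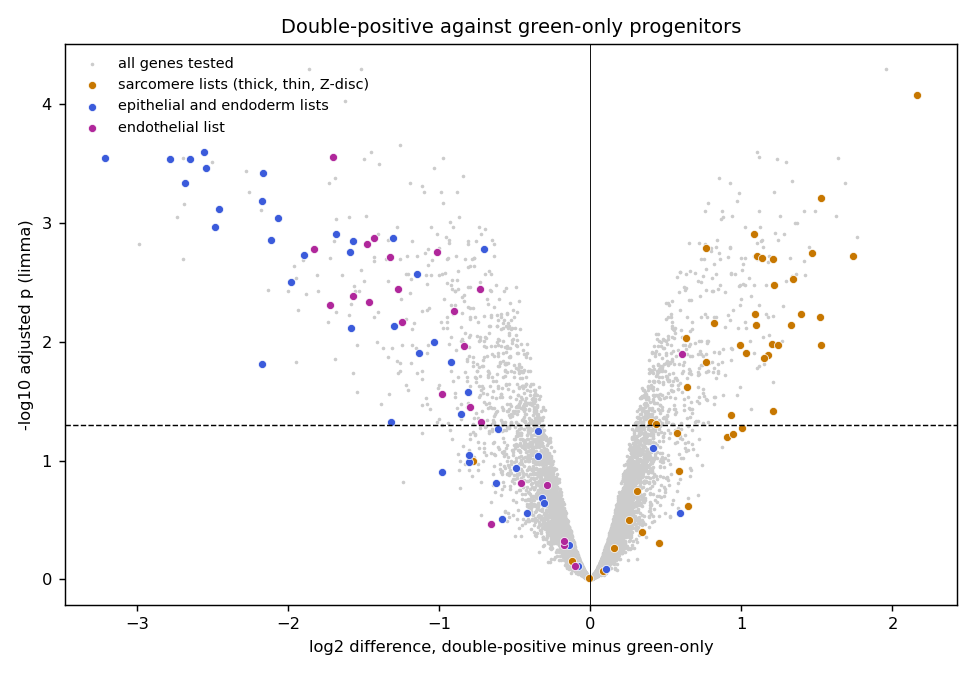
Each point is a gene, placed by its log2 difference, double-positive minus green-only (horizontal axis), and by the minus log10 of its limma adjusted p (vertical axis), with a dashed line at 0.05. Sarcomere genes lie mostly to the right, with Smpx at 2.16, and epithelial, endoderm and endothelial genes mostly to the left, with Cdh1 at -3.21.

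Fewer genes passed when single arrays were left out. Without the green-only array of experiment A, 264 genes were higher (1.93%) and 429 lower (3.13%). Of the 516 higher genes 246 still passed without that array, as did 371 of the 632 lower genes, and every one of the 1148 kept its sign. Without the double-positive array of experiment A the fit called 188 higher and 289 lower genes, without that of experiment B 267 and 359, and without that of experiment C 437 and 406. The median difference of the 516 higher genes was 0.79 in experiment A, 0.52 in B and 0.48 in C. Over the 632 lower genes it was -0.81, -0.61 and -0.56.

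The transcription factors tied to the reporters came first. Nkx2-5, the homeobox factor of early heart muscle, had 369.7, 452 and 425 units in double-positive cells of experiments A, B and C, against 191, 266 and 239.9 units in green-only cells. The difference was 0.85 ± 0.14 on the log2 scale (limma estimate ± SE, n = 3 arrays per population, as in all differences below), with an adjusted p of 0.0036. Mef2c, a MADS-box factor needed for the right ventricle, had 439, 487 and 447 units in double-positive cells and 166, 296 and 232 units in green-only cells. Both genes were higher on all double-positive arrays than on any green-only array, and Mef2c rose by 1.02 ± 0.15 (adjusted p 0.002). Isl1, the LIM homeobox factor that marks second heart field progenitors, had 76.5, 88.6 and 95.1 units in double-positive cells and 89.2, 78.6 and 73.7 units in green-only cells. Its arrays overlapped, and the difference of 0.11 ± 0.13 did not pass (adjusted p 0.72). Since the red gate reads a Mef2c enhancer in the published system, the Mef2c level was not independent of the sort.

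Of the 20 cardiac transcription factors and chromatin regulators tested, 7 rose (35%, beside 3.77% of all genes), and the other 13 did not pass. The list's median difference was 0.31. Smyd1, which binds muscle chromatin and is needed for the right ventricle, had 498, 501 and 512 units in double-positive cells and 127, 199 and 168 in green-only cells, a 3.11-fold difference (1.64 ± 0.16, adjusted p 0.00028). Of its 4 other probe sets above the filter 3 had the same sign, with differences from -0.076 to 1.645 over the 4. Myocd, the serum response factor coactivator myocardin, had 244, 231 and 208 units in double-positive cells and 111, 116 and 108 in green-only cells (1.03 ± 0.13, adjusted p 0.0011). For both genes every double-positive array lay above every green-only array. Gata4, a zinc finger factor of early heart mesoderm and endoderm and the brightest member that did not pass, had 172, 161 and 168 units in double-positive cells and 202, 186 and 190.3 in green-only cells (-0.21 ± 0.11, adjusted p 0.33). Without the green-only array of experiment A, 5 members were higher and 1 lower, Hand1, a helix-loop-helix factor of early heart and extraembryonic mesoderm named here after its value was seen. Hand1 differed by -0.57 ± 0.17 (adjusted p 0.055) with all arrays and by -0.72 (adjusted p 0.033) without that one. Among 11 other second heart field genes, 1 rose and 1 fell, with a median of 0.11. Each is 9.09% of the list, beside 3.77% higher and 4.61% lower of all genes. These were Fgf10, a growth factor of the field (0.50 ± 0.14, adjusted p 0.045), and Nrp2, a semaphorin receptor (-0.63 ± 0.13, adjusted p 0.011). Neither call held without the green-only array of experiment A (adjusted p 0.16 for Fgf10 and 0.051 for Nrp2) or without the double-positive array of A (0.11 and 0.051) or B (0.2 and 0.063). Fgf10 was also lost without the double-positive array of C (0.057) and without the green-only array of B (0.17), with no pairing by experiment (0.091), with array weights (0.057) and with only the 6 arrays compared (0.1). Nrp2 was also lost with the mean of its probe sets (-0.28, adjusted p 0.059).

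**Figure D2:**
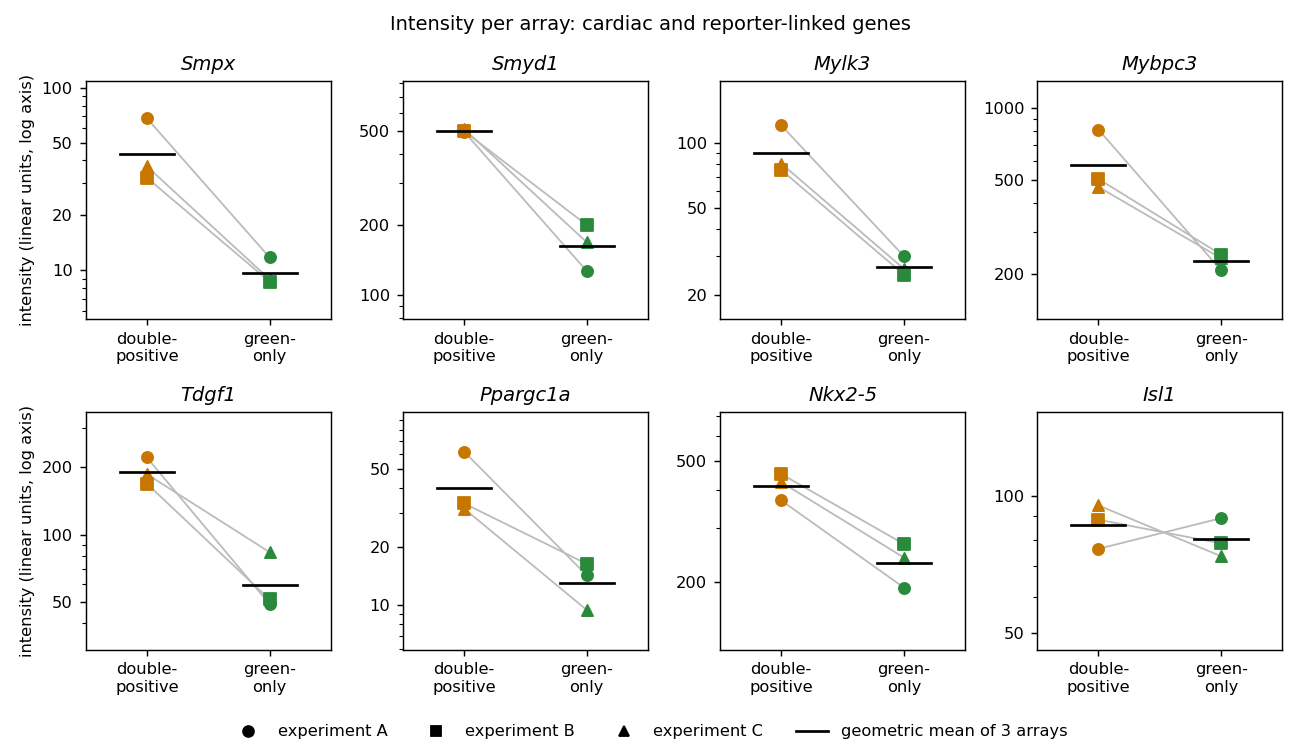
Intensity (linear units on a log axis) of 8 genes on the 3 double-positive arrays (left) and the 3 green-only arrays (right), with a marker per experiment, grey lines joining arrays of one experiment, and black bars for the geometric mean. The populations do not overlap for 7 of the genes, and they overlap for Isl1.

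Sarcomere genes rose together. Of 12 genes of the thick filament and M-band, 9 rose and the other 3 did not pass, with a median difference of 1.16. Of 13 thin filament genes 8 rose and 5 did not pass (median 0.82), and of 21 Z-disc and costamere genes 14 rose and 7 did not pass (median 0.99). These shares, 75%, 61.5% and 66.7%, stand beside 3.77% of all genes. The summed intensity of the 12 thick filament genes was 21600, 16170 and 15670 units in double-positive cells of experiments A, B and C, and 7725, 9402 and 9360 units in green-only cells. Every double-positive sum exceeded every green-only sum, by the widest margin in experiment A. In these mixed populations, fewer cells of a type and less RNA per cell cannot be told apart.

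Smpx, a small muscle protein of the costamere and one of the markers set for this comparison, showed the largest increase of all genes that met the naming rule. It had 68.2, 32.2 and 37.1 units in double-positive cells and 11.8, 8.67 and 8.93 units in green-only cells. The lowest double-positive value was far above the highest green-only value, and the fold was 4.47 (2.16 ± 0.17, adjusted p 8.3e-05). Mylk3, the cardiac kinase of the myosin light chain, had 121, 75.1 and 80.4 units in double-positive cells and 30, 24.7 and 26.3 in green-only cells (1.74 ± 0.25, adjusted p 0.0019). Mybpc3 had 812, 503 and 466 units in double-positive cells and 207, 242 and 233 in green-only cells (1.34 ± 0.21, adjusted p 0.003). In both genes the double-positive array of experiment A was the highest of the 6 arrays, and the populations did not overlap.

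Myl2, the regulatory light chain of ventricular muscle, had 1230.2, 1194 and 864 units in double-positive cells and 265, 566 and 352 in green-only cells (1.53 ± 0.31, adjusted p 0.011). Its call depended on single arrays, with an adjusted p of 0.072 without the double-positive array of experiment A and 0.055 without that of B. With all arrays and an intensity trend with robust variances it was 0.056. Myom1 had 382, 243 and 227 units in double-positive cells and 99.6, 129 and 103 in green-only cells (1.33 ± 0.25, adjusted p 0.0073), and its adjusted p was 0.052 without the double-positive array of A. Myh6, the atrial myosin heavy chain and the brightest thick filament gene that did not pass, had 1222, 849 and 713 units in double-positive cells and 376, 585 and 514 in green-only cells. Its difference was 0.90 ± 0.27 (adjusted p 0.063). It passed without the double-positive array of C (adjusted p 0.047) and without the green-only array of B (0.032).

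Thin filament genes with the largest differences were Nebl, Xirp1, Tmod1 and Tnnt2. Nebl encodes nebulette, an actin anchor at the Z-disc, and had 269, 208 and 180.4 units in double-positive cells and 60.6, 101 and 91.3 in green-only cells (1.39 ± 0.25, adjusted p 0.0059). Xirp1, an actin-binding repeat protein of the intercalated disc, rose by 1.24 ± 0.25 (adjusted p 0.011). Tmod1, tropomodulin, which caps the pointed end of the filament, had 503, 302 and 356 units in double-positive cells and 145, 169.5 and 178 in green-only cells (1.21 ± 0.18, adjusted p 0.002). Tnnt2, cardiac troponin T, had 2214, 1609 and 1659 units in double-positive cells and 741, 895 and 920.0 in green-only cells, a 2.13-fold difference (1.09 ± 0.20, adjusted p 0.0058). Its probe set is one of a type that can also detect related transcripts. Actc1, cardiac alpha actin, was among the brightest genes, at 5244, 4294 and 4142 units in double-positive cells and 2808, 3106 and 3170.2 in green-only cells. Its difference of 0.58 ± 0.21 did not pass (adjusted p 0.12), but passed with only the 6 arrays compared (0.040).

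At the Z-disc, Synpo2l had 221, 143 and 124 units in double-positive cells and 62.4, 59.6 and 44 in green-only cells (1.53 ± 0.18, adjusted p 0.00062). Unc45b, the chaperone that folds muscle myosin, had 287, 263 and 231 units in double-positive cells and 66, 106 and 106 in green-only cells (1.52 ± 0.28, adjusted p 0.0062). Asb2, a ubiquitin ligase subunit that targets filamins and is one of the genes with a CArG box printed above, rose by 1.47 ± 0.21 (adjusted p 0.0018). The 3 genes were higher in double-positive cells in each experiment. Csrp3, the muscle LIM protein, differed by 1.01 ± 0.29 and did not pass (adjusted p 0.053). Single arrays moved 2 of the 3 sarcomere counts by over 1.5 times. Without the double-positive array of experiment A 3 thick filament genes and 9 Z-disc genes rose, and without that of experiment B 4 thick filament genes did. Without the green-only array of A the counts were 6 of 12, 6 of 13 and 10 of 21. The epithelial markers described below were lower on the same arrays, with summed intensities of 840 to 1245 units in double-positive cells against 2052 to 5602 in green-only cells, and their part in the sarcomere difference was not tested.

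Genes of calcium cycling and excitation followed the sarcomere genes. Of 24 tested, 12 rose (50%, beside 3.77% of all genes), 1 fell (4.17%, beside 4.61%) and 11 did not pass. The median was 0.60. Srl, sarcalumenin, a calcium-binding protein of the sarcoplasmic reticulum, had 264, 139 and 149.8 units in double-positive cells and 60.9, 63.1 and 64.7 in green-only cells (1.49 ± 0.18, adjusted p 0.00079). Slc8a1, the sodium-calcium exchanger of the cell membrane, had 113, 80.7 and 64.9 units in double-positive cells and 32.2, 47.9 and 20 in green-only cells (1.42 ± 0.22, adjusted p 0.0027). Cacna1c, the pore of the L-type calcium channel, had 63.8, 41.3 and 48.5 units in double-positive cells and 18.4, 25.5 and 20 in green-only cells (1.26 ± 0.15, adjusted p 0.00086). None of these 3 genes overlapped between the populations. Gja1, connexin 43 of gap junctions, was the member that fell, with 75.5, 61.5 and 81.3 units in double-positive cells and 521, 183 and 171 in green-only cells, a 3.51-fold lower level (-1.81 ± 0.28, adjusted p 0.0027). Atp2a2, the calcium pump of the sarcoplasmic reticulum and the brightest member that did not pass, had 339, 341 and 325 units in double-positive cells and 326, 285 and 292 in green-only cells (0.16 ± 0.09, adjusted p 0.33). Atp2a2 passed with the mean of its probe sets (0.34, adjusted p 0.038). Without the double-positive array of experiment A 7 members rose, and without the green-only array of A 8 rose and 1 fell.

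Of 13 genes of natriuretic peptides, creatine kinases and muscle energy supply, 6 rose (46.2%, beside 3.77% of all genes) and 7 did not pass (median 0.46). The number that rose was also 6 without the green-only array of experiment A. Ppargc1a, the coactivator that drives mitochondrial biogenesis, had 61.7, 33.4 and 31.4 units in double-positive cells and 14.3, 16.3 and 9.47 in green-only cells (1.63 ± 0.20, adjusted p 0.00088). Fabp3, the heart fatty acid-binding protein, had 250.0, 278 and 199.6 units in double-positive cells and 76.8, 131 and 104 in green-only cells (1.24 ± 0.17, adjusted p 0.0014). Ckb, the brain-type creatine kinase, had 716, 471 and 463 units in double-positive cells and 248, 218 and 219 in green-only cells (1.24 ± 0.12, adjusted p 0.00029). All 3 were higher on every double-positive array than on any green-only array. Cox7a1, the heart and muscle form of a respiratory complex IV subunit, rose by 1.01 ± 0.15 (adjusted p 0.0022).

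Among 23 genes of mitochondrial respiration and fatty acid oxidation 12 rose (52.2%, beside 3.77% of all genes) and the other 11 did not pass. The median was 0.33, with no called difference of 2-fold or more. Idh3a, a subunit of the citrate cycle isocitrate dehydrogenase, had 280.0, 206 and 174 units in double-positive cells and 136, 136 and 134 in green-only cells (0.67 ± 0.13, adjusted p 0.0078). Hadhb, a subunit of the trifunctional enzyme of fatty acid oxidation, rose by 0.64 ± 0.12 (adjusted p 0.0061), and Cox5a, a complex IV subunit, by 0.54 ± 0.10 (adjusted p 0.0068). The count depended on single arrays. Without the double-positive arrays of A or B 3 and 5 members rose, and without the green-only arrays of A or B 5 and 7 rose.

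Glycolysis genes moved both ways. Of 16 tested, 5 rose (31.2%, beside 3.77% of all genes), 2 fell (12.5%, beside 4.61%) and 9 did not pass. The median was 0.30. Eno3, the muscle enolase, had 561, 451 and 459 units in double-positive cells and 202, 221 and 251 in green-only cells (1.13 ± 0.14, adjusted p 0.0011). Slc2a3, the glucose transporter GLUT3, had 1388, 756 and 1205 units in double-positive cells and 4395, 2239 and 2396 in green-only cells, a 2.65-fold lower level (-1.41 ± 0.19, adjusted p 0.0012). The arrays of the 2 populations did not overlap for either gene, in opposite directions. Pgk1, phosphoglycerate kinase, had 4746, 4347 and 4585 units in double-positive cells and 4339.7, 3934 and 4733 in green-only cells (0.08 ± 0.09, adjusted p 0.72). The number that rose was 2 without the double-positive array of A, 3 without the green-only array of A or of C, and 2 with no pairing by experiment.

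**Figure D3:**
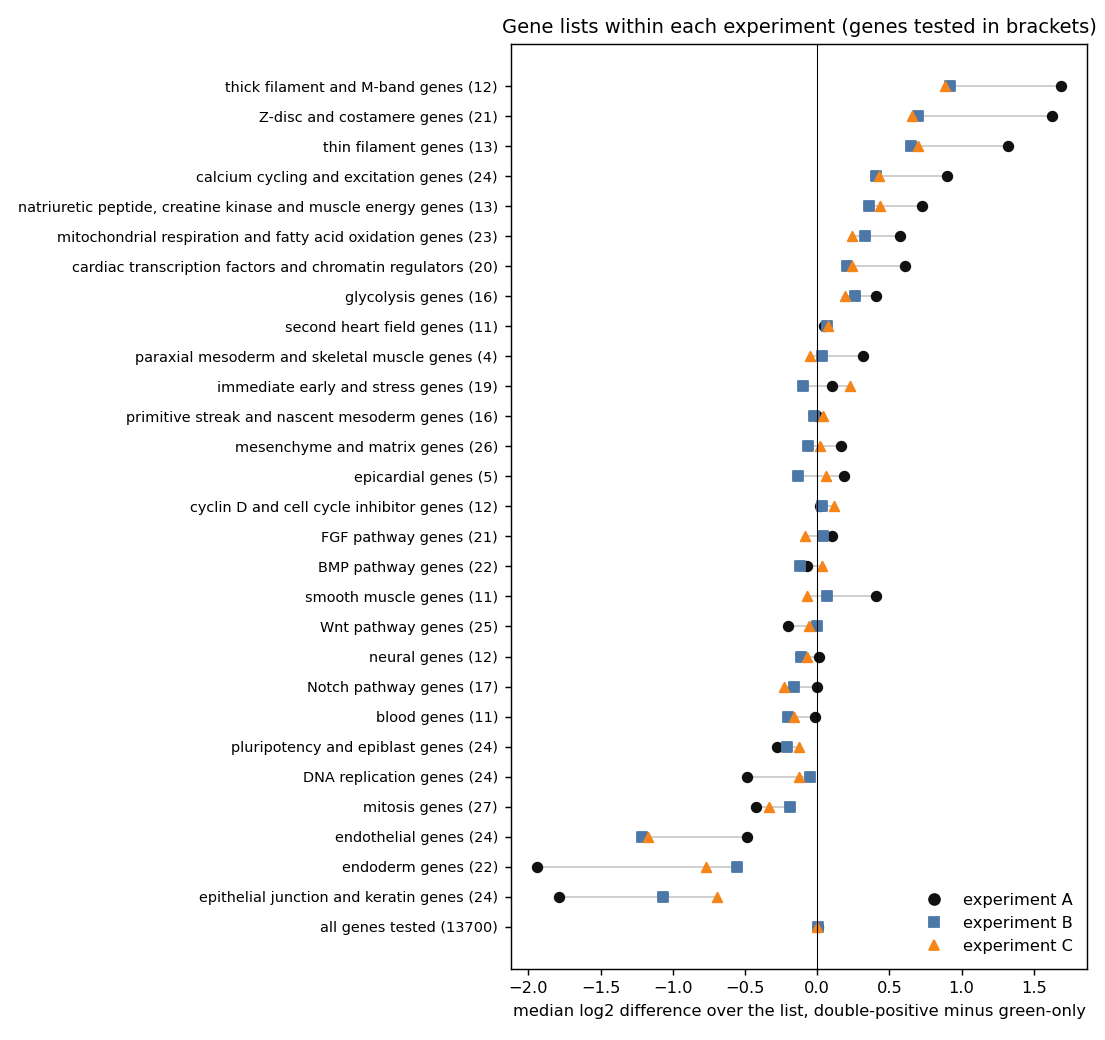
Median log2 difference, double-positive minus green-only, of each of the 28 gene lists and of all genes (rows, number of genes tested in brackets), with a marker for each experiment. The thick filament medians were 1.69, 0.92 and 0.89 in experiments A, B and C, and the epithelial medians -1.79, -1.07 and -0.69, while all genes sat at about 0.

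Epithelial genes were lower in double-positive cells. Of 24 genes of epithelial junctions and keratins, 16 fell (66.7%, beside 4.61% of all genes) and the other 8 did not pass, with a median of -1.14. Cdh1, E-cadherin, the adhesion molecule of epithelia and undifferentiated cells and the marker that showed the largest decrease under the naming rule, had 6.76, 4.09 and 8.61 units in double-positive cells and 122, 39 and 39.5 units in green-only cells. Every green-only value was above every double-positive value, and the level was 9.24-fold lower in double-positive cells (-3.21 ± 0.31, adjusted p 0.00028). The green-only array of experiment A held the highest level, and without it the difference was -2.75 (adjusted p 6.7e-05). Cldn7, a tight junction claudin, had 12.2, 9.47 and 16 units in double-positive cells and 173, 58.4 and 59.1 in green-only cells (-2.78 ± 0.27, adjusted p 0.00029). Krt18, a keratin of simple epithelia, had 147, 54 and 138 units in double-positive cells and 1496, 387 and 465 in green-only cells (-2.65 ± 0.26, adjusted p 0.00029). Epcam, an epithelial adhesion molecule, had 26.2, 13.3 and 28.6 units in double-positive cells and 235, 85.1 and 97.8 in green-only cells (-2.54 ± 0.26, adjusted p 0.00034). In these genes the green-only array of experiment A was the highest of the 6 arrays, and the populations did not overlap.

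The summed intensity of the 24 epithelial genes was 1245, 840 and 1107 units in double-positive cells of experiments A, B and C, and 5602, 2052 and 2249 units in green-only cells. The list's medians within experiments were -1.79, -1.07 and -0.69. Without the green-only array of A the same count of 16 genes fell, with a median of -0.84. Pkp2, plakophilin 2, a desmosome protein also of heart muscle, was the brightest member that did not pass, at 262, 182 and 199 units in double-positive cells and 177, 132 and 172 in green-only cells (0.41 ± 0.13, adjusted p 0.078). It passed without the double-positive array of C (adjusted p 0.021), without experiment C (0.0435) and with an intensity trend and robust variances (0.039).

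Endoderm genes followed the epithelial ones. Of 22 tested, 13 fell (59.1%, beside 4.61% of all genes) and the other 9 did not pass, with a median of -1.14. Rbp4, the retinol carrier of visceral endoderm and liver, had 77.2, 17.6 and 52.5 units in double-positive cells and 759, 97.6 and 196 in green-only cells (-2.56 ± 0.23, adjusted p 0.00025). Apob, the lipoprotein component made by yolk sac and liver, had 14.8, 6.44 and 8.53 units in double-positive cells and 137, 20.2 and 51.6 in green-only cells (-2.49 ± 0.32, adjusted p 0.0011). Trh, the thyrotropin-releasing hormone precursor, had 36.1, 29.3 and 53.4 units in double-positive cells and 396, 189.7 and 198 in green-only cells (-2.68 ± 0.30, adjusted p 0.00046). The green-only arrays were higher than all double-positive arrays for these genes. With no pairing by experiment Rbp4 did not pass (adjusted p 0.099).

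The summed endoderm intensity was 1154, 859 and 1162 units in double-positive cells of experiments A, B and C, and 4436, 1439 and 2061 units in green-only cells. Experiment A had the widest gap, with a list median of -1.94, against -0.56 in B and -0.77 in C. Without the green-only array of A, 10 genes fell and the median was -0.61. Without the double-positive array of A 7 genes fell, and with no pairing 6 did. Apoe, an apolipoprotein that many cell types make, had 587, 529 and 684 units in double-positive cells and 853, 597 and 785 in green-only cells (-0.30 ± 0.14, adjusted p 0.23).

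The 10 largest decreases held 6 genes outside the lists. Cpm, a membrane carboxypeptidase, had 10, 8.14 and 10.8 units in double-positive cells and 176, 47.8 and 52.3 in green-only cells (-2.99 ± 0.42, adjusted p 0.0015). Spink1, a trypsin inhibitor, had 143, 22.6 and 102 units in double-positive cells and 1428, 200.4 and 434 in green-only cells (-2.86 ± 0.24, adjusted p 0.00015), and did not pass with no pairing by experiment (adjusted p 0.063). Apela, a peptide ligand of the apelin receptor, had 11.6, 11.5 and 17.9 units in double-positive cells and 216, 45.2 and 66.4 in green-only cells (-2.70 ± 0.40, adjusted p 0.002). Tmprss2 (an epithelial serine protease), Clic6 (a chloride channel family protein) and Irs4 (an insulin receptor substrate) completed the 10 largest, with differences of -2.73 ± 0.34, -2.69 ± 0.26 and -2.69 ± 0.32. The naming rule took only genes whose populations did not overlap, so the lack of overlap of these 6 genes was set by the selection.

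Endothelial genes were lower in double-positive cells too, but the gap was widest in experiments B and C. Of 24 tested, 17 fell (70.8%, beside 4.61% of all genes), 1 rose (4.17%, beside 3.77%) and 6 did not pass. The median was -0.94. Tie1, an endothelial receptor tyrosine kinase, had 7.54, 11.2 and 11.4 units in double-positive cells and 14.3, 56.1 and 53.7 in green-only cells (-1.83 ± 0.26, adjusted p 0.0017). The green-only array of experiment A was low for this gene, close to the double-positive arrays, and without it the difference was -2.29 (adjusted p 1.4e-05). Cdh5, VE-cadherin, had 16.5, 22.3 and 23.8 units in double-positive cells and 25.2, 96.2 and 94.1 in green-only cells (-1.57 ± 0.27, adjusted p 0.0041), and did not pass with no pairing by experiment (adjusted p 0.062). Ets1, a transcription factor of endothelium and blood, had 15.1, 13.7 and 23.7 units in double-positive cells and 34.8, 73 and 69.6 in green-only cells (-1.72 ± 0.30, adjusted p 0.0049). Adgrf5, an adhesion receptor of endothelium, had 6.85, 6.85 and 12.1 units in double-positive cells and 23.5, 26.7 and 31.2 in green-only cells (-1.70 ± 0.16, adjusted p 0.00028). The populations did not overlap for these 4 genes, and the array of experiment A was the lowest green-only array for each.

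The summed intensity of the 24 endothelial genes was 657, 840 and 908 units in double-positive cells of experiments A, B and C, and 891, 2190 and 2183 units in green-only cells. Its medians within experiments were -0.49, -1.21 and -1.17, so that experiment A had the smallest endothelial difference and the largest epithelial one. Without the green-only array of A, 18 genes fell and the median was -1.15. Egfl7, a secreted endothelial protein, had 72.4, 88.5 and 93.8 units in double-positive cells and 72.7, 130.5 and 164 in green-only cells. Its difference of -0.46 ± 0.18 did not pass (adjusted p 0.15) and passed without the green-only array of A (-0.72, adjusted p 0.011). The gene that rose was Lmo2, a transcription cofactor of blood and endothelium, named here after its value was seen (0.60 ± 0.13, adjusted p 0.013), and it did not pass without the green-only array of A (adjusted p 0.057) or the double-positive arrays of A (0.084) or B (0.059), or with no pairing by experiment (0.28). With no pairing by experiment 11 genes fell.

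**Figure D4:**
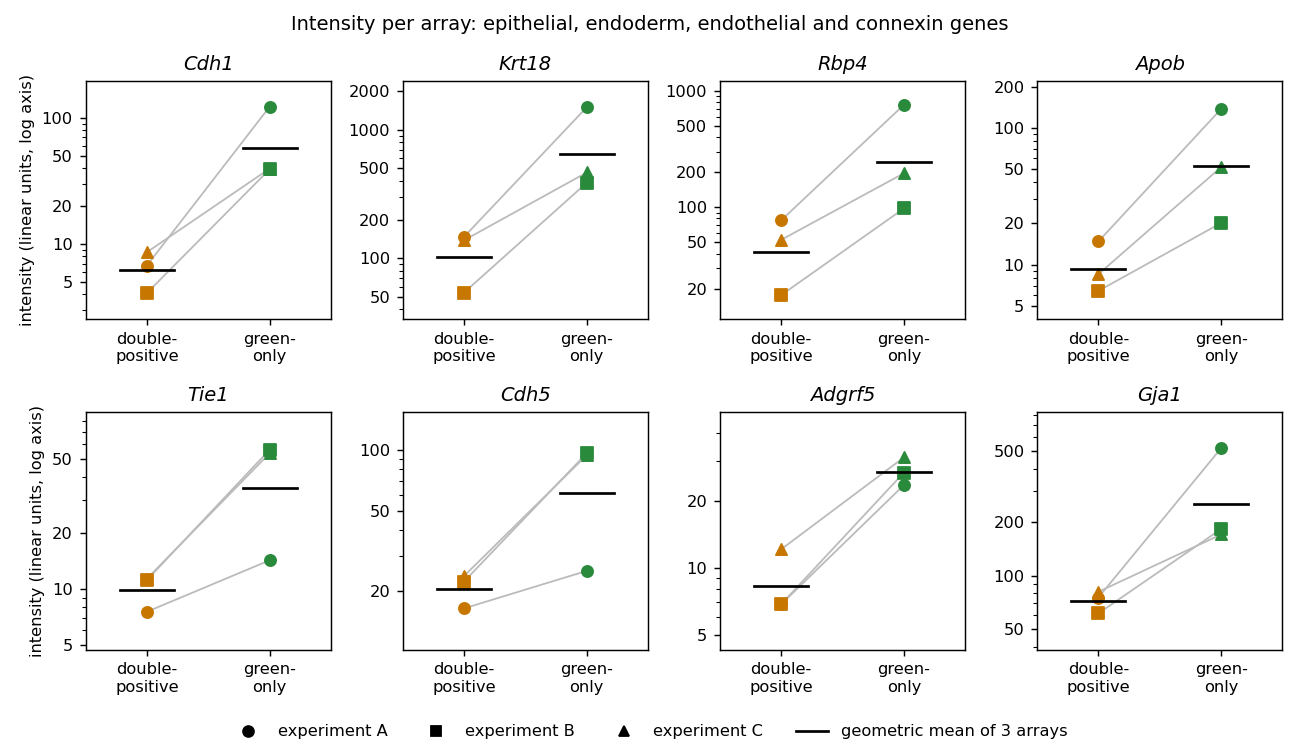
Intensity (linear units on a log axis) of 8 genes that fell, on the 3 double-positive arrays (left) and the 3 green-only arrays (right), with a marker per experiment, grey lines joining arrays of one experiment, and black bars for the geometric mean. The green-only array of experiment A is the highest for Cdh1, Krt18, Rbp4 and Apob and the lowest green-only array for Tie1, Cdh5 and Adgrf5.

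Genes of the pluripotent and epiblast state gave more lower than higher calls. Of 24 tested, 7 fell (29.2%, beside 4.61% of all genes), 1 rose (4.17%, beside 3.77%) and 16 did not pass. The median was -0.20. Tdgf1, Cripto, a Nodal coreceptor of the epiblast that also acts in early heart progenitors, was the gene that rose. It had 221, 169 and 186 units in double-positive cells and 48.8, 51.2 and 83.4 units in green-only cells, a 3.22-fold difference (1.69 ± 0.18, adjusted p 0.00046). The lowest double-positive array was above the highest green-only array. Fgf5, a growth factor of the epiblast, went the other way with 12.8, 7.36 and 8.69 units in double-positive cells and 82.3, 21 and 20.1 in green-only cells (-1.80 ± 0.30, adjusted p 0.0037). Dnmt3b, a DNA methyltransferase of the epiblast, differed by -1.07 ± 0.22 (adjusted p 0.011), and did not pass without the double-positive array of A (adjusted p 0.068) or B (0.06). Dppa5a, an RNA-binding protein of pluripotent cells, had 30.4, 31.2 and 41.2 units in double-positive cells and 48.9, 41.8 and 44.3 in green-only cells (-0.40 ± 0.18, adjusted p 0.21). The count that fell was 3 without the double-positive array of A and 4 with no pairing.

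Between 0 and 2 genes were called in each of the remaining lineage lists, with lower shares of 6.25% (primitive streak), 18.2% (blood) and 20% (epicardial) beside 4.61% of all genes. Of 16 genes of the primitive streak and nascent mesoderm 1 fell, Eomes, a T-box factor (-1.08 ± 0.22, adjusted p 0.012), whose call was lost without the double-positive array of A (0.068) or B (0.072) and with no pairing by experiment (0.1). Of 11 blood genes 2 fell, the embryonic globins Hbb-bh1 (-0.91 ± 0.21, adjusted p 0.022) and Hbb-y (-0.58 ± 0.15, adjusted p 0.037). Neither passed without the double-positive array of A (0.095 and 0.17) or B (0.12 and 0.056), without the green-only array of A (0.069 and 0.12) or B (0.1 and 0.078), or with no pairing by experiment (0.38 and 0.19). Hbb-y was also lost without the green-only array of C (0.087), with only the 6 arrays compared (0.061), with the mean of its probe sets (-0.34, adjusted p 0.13) and with pseudocounts of 4.10 (-0.32, 0.16) and 6.52 (-0.25, 0.27). Hbb-bh1 was lost with an intensity trend and robust variances (0.053). Among 12 neural genes limma called 0, with 1 at an unadjusted p under 0.05, and among 4 paraxial mesoderm and skeletal muscle genes it called 0, with 0 at that unadjusted level. Of 5 epicardial genes 1 fell.

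Smooth muscle and matrix genes split. Of 11 smooth muscle genes 3 rose (27.3%, beside 3.77% of all genes) and 1 fell (9.09%, beside 4.61%). Acta2, smooth muscle alpha actin, which early heart muscle also makes, had 4499, 3747 and 3526 units in double-positive cells and 2045, 2299 and 2305 in green-only cells (0.82 ± 0.15, adjusted p 0.0062). Tagln, transgelin, had 219, 48.4 and 68.8 units in double-positive cells and 223, 92.2 and 108 in green-only cells (-0.54 ± 0.28, adjusted p 0.3). It passed as lower without the double-positive array of A (adjusted p 0.043). Of 26 mesenchyme and matrix genes 4 rose (15.4%), 5 fell (19.2%) and 17 did not pass, with a median of 0.02. Vcan, versican, a proteoglycan of cardiac jelly, had 533, 446 and 409 units in double-positive cells and 185, 244 and 209 in green-only cells (1.12 ± 0.20, adjusted p 0.0049). Fn1, fibronectin, had 542, 869 and 835 units in double-positive cells and 1199, 1410.0 and 1238 in green-only cells (-0.80 ± 0.16, adjusted p 0.0092), and did not pass without the double-positive array of A (adjusted p 0.061) or with no pairing by experiment (0.07). The count of matrix genes that fell was 2 or 3 without any single double-positive or green-only array and 2 with no pairing.

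Signalling pathways gave more lower than higher calls, with lower shares of 13.6% (BMP), 20% (Wnt), 17.6% (Notch) and 19% (FGF) beside 4.61% of all genes. Among 22 BMP pathway genes 1 rose and 3 fell. Id3, an inhibitor of basic helix-loop-helix factors and a target of BMP signals, had 113, 109.9 and 161 units in double-positive cells and 274, 206 and 236 in green-only cells (-0.91 ± 0.12, adjusted p 0.0011). Smad1, the signal transducer of BMP receptors, had 35.1, 33.7 and 36.4 units in double-positive cells and 60.4, 49.8 and 54.9 in green-only cells (-0.65 ± 0.09, adjusted p 0.0014). Both genes were lower on every double-positive array than on any green-only array. Among 25 Wnt pathway genes 1 rose and 5 fell, 5 becoming 3 without the double-positive array of A or of B. Fzd7, a Wnt receptor, had 53.1, 29.5 and 40.2 units in double-positive cells and 142, 66.6 and 83.4 in green-only cells (-1.21 ± 0.18, adjusted p 0.0019), and Sfrp5, a secreted Wnt antagonist, differed by -0.76 ± 0.14 (adjusted p 0.0061). Of 17 Notch pathway genes 1 rose and 3 fell, including the receptor Notch3 (-0.67 ± 0.13, adjusted p 0.0074). Of 21 FGF pathway genes 1 rose and 4 fell, the members named above being Fgf10 and Fgf5. With no pairing by experiment the lower counts were 3 (BMP), 4 (Wnt), 1 (Notch) and 1 (FGF), and the higher counts 1, 0, 1 and 0. Of 19 immediate early and stress genes 1 rose and 1 fell (5.26% each, near the 3.77% higher and 4.61% lower of all genes). The higher shares of the 4 pathways were also near 3.77%, at 4.55% (BMP), 4% (Wnt), 5.88% (Notch) and 4.76% (FGF).

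The mitosis genes that passed were lower in double-positive cells. Of 27 mitosis genes 11 fell (40.7%, beside 4.61% of all genes) and the other 16 did not pass. The median was -0.31, with no called difference of 2-fold or more. Cenpe, a kinetochore motor protein, had 32.6, 40.1 and 39.2 units in double-positive cells and 61.1, 52.4 and 57.7 in green-only cells (-0.62 ± 0.12, adjusted p 0.0074). Cdk1, the mitotic kinase, had 403, 485 and 478 units in double-positive cells and 516, 561 and 549.7 in green-only cells (-0.26 ± 0.11, adjusted p 0.18). The mitosis count was sensitive to single arrays, at 1 without the double-positive array of A, 4 without that of B and 5 without that of C, and at 3, 7 and 2 without the green-only arrays of A, B and C. With no pairing by experiment it was 5. Of 24 DNA replication genes 2 fell (8.33%), with a median of -0.23. Of 12 cyclin D and inhibitor genes 2 rose (16.7%, beside 3.77% of all genes). Cdkn1c, the p57 inhibitor of cyclin-dependent kinases, had 1893, 1999 and 2178 units in double-positive cells and 815, 1084 and 1242 in green-only cells (0.97 ± 0.11, adjusted p 0.00065), with no overlap.

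Among the 10 largest increases, 2 genes lay outside the lists. Mlf1, myeloid leukaemia factor 1, had 57.1, 49.3 and 62.6 units in double-positive cells and 10.9, 14.5 and 19.1 in green-only cells (1.96 ± 0.14, adjusted p 5.1e-05). Diras2, a small GTPase of the Ras family, had 90.1, 46.4 and 69.4 units in double-positive cells and 15.9, 19.1 and 24.3 in green-only cells (1.77 ± 0.24, adjusted p 0.0013). Their lack of overlap between the populations was also set by the naming rule.

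Across all 4 populations, double-positive cells had the highest mean for 497 of the 516 higher genes, and double-negative cells the lowest for 403. The order from double-positive through green-only and red-only to double-negative held for 269. Of the 632 lower genes, double-positive cells had the lowest mean for 523, while the highest lay in green-only cells for 239, in red-only cells for 103 and in double-negative cells for 290. The calls were made on the double-positive and green-only arrays, so the order of those populations was set by the selection. The counts of highest and lowest means are therefore not independent of the calls. The lists differed in where the lower genes peaked. Double-negative cells were highest for 12 of the 16 epithelial genes, for all 7 pluripotency genes and for all 11 mitosis genes that fell, whereas green-only cells were highest for 11 of the 13 endoderm and 15 of the 17 endothelial genes.

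Whether the difference that goes with the red reporter was the same in green-negative cells was tested as (double-positive minus green-only) minus (red-only minus double-negative). This interaction passed for 1858 of 13700 genes (13.6%) and for 428 of the 1148 called genes. Of the 162 higher genes among them, 93 had a positive and 69 a negative interaction, and of the 266 lower genes 34 had a positive and 232 a negative one. The interaction contains the difference that called these genes, so the share that passed and these signs are not independent of the calls. Tdgf1 had 21.2, 24.7 and 38.4 units in red-only cells of experiments A, B and C and 50.2, 65.1 and 63.5 in double-negative cells, a difference of -1.12 ± 0.18 (adjusted p 0.00079) opposite in sign to that in green-positive cells. Nkx2-5 had 138, 154 and 207 units in red-only cells and 37.9, 31.6 and 37 in double-negative cells. Mef2c had 189, 246 and 271 units in red-only cells and 13.9, 25.2 and 25.7 in double-negative cells. Both genes differed more in green-negative than in green-positive cells, by log2 interactions of -1.37 ± 0.20 (adjusted p 0.00091) and -2.46 ± 0.21 (adjusted p 3.9e-05). In the published system the gates read enhancers of these same genes. Their levels in all populations, and so these interactions, were not independent of the sort.

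Among the lists, 16 of the 17 endothelial genes that fell had a negative interaction, beside 232 of all 632 lower genes. The difference that called them is part of the interaction here too. Tie1 had 13.6, 25 and 25.9 units in red-only cells and 13.7, 17.2 and 15.6 in double-negative cells, a difference of 0.42 ± 0.26 (adjusted p 0.28) that did not pass, and its interaction was -2.25 ± 0.37 (adjusted p 0.002). Of the 16 epithelial genes that fell, limma's interaction test called 0, with 2 at an unadjusted p under 0.05. Cdh1 had 13, 5.87 and 11.2 units in red-only cells and 106, 111 and 119 in double-negative cells, a difference of -3.56 ± 0.31 (adjusted p 8.8e-06), with an interaction of 0.35 ± 0.44 (adjusted p 0.68). Smyd1 had 73.4, 79.2 and 124 units in red-only cells and 13.5, 19.8 and 20.9 in double-negative cells, with an interaction of -0.70 ± 0.22 (adjusted p 0.061). Of the sarcomere genes that rose, 4 of 9 thick filament, 3 of 8 thin filament and 3 of 14 Z-disc genes had an interaction. Over all higher genes 162 of 516 had one. The interaction was negative for the 4 thick filament and 3 thin filament genes. Of the 3 Z-disc genes, 1 had a negative and 2 a positive interaction, and Smpx was among the positive. Smpx, at 5.01, 4.2 and 5.77 units in red-only cells and 3.08, 2.49 and 2.65 in double-negative cells, had a larger log2 difference in green-positive cells (1.30 ± 0.23, adjusted p 0.0037). Its red-only and double-negative values lay near the floor of 2.09 units, which limits the difference in green-negative cells. The part of the floor in this interaction was not tested.

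**Figure D5:**
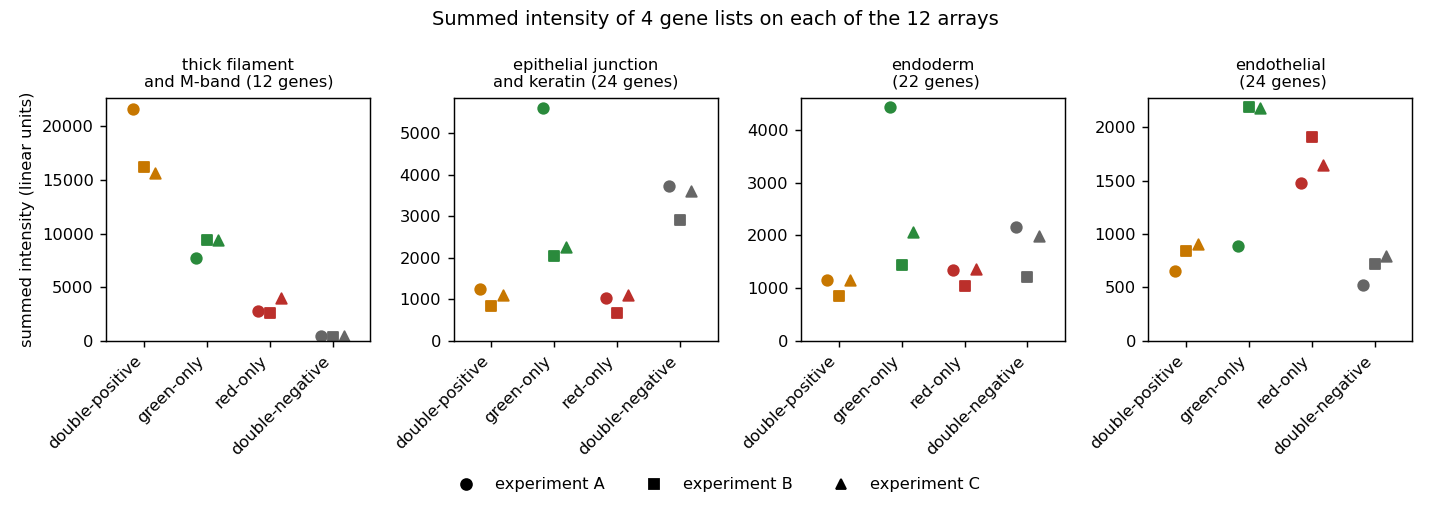
Summed intensity (linear units, axes from 0) of the tested genes of 4 lists on each of the 12 arrays, by population and experiment. Thick filament sums are highest in double-positive cells at 15670 to 21600 units, the epithelial and endoderm sums of green-only cells peak in experiment A at 5602 and 4436 units, and the endothelial sums of green-only and red-only cells exceed those of double-positive cells in each experiment.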

How the data were processed

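The deposited values are linear probe set intensity values, 1 per probe set and array, from biotinylated cRNA (5 ug of total RNA went into each), per the labels' protocols. The authors used MAS5, per the submitters' processing notes, and its version and scaling are not given in the sources used here. Values ran from 2.09 to 8820 units. They share that floor and come with no detection calls, so the summarisation that made them, and with it the size of a fold change in dim genes, is not settled by the sources used here. The description of the sort in the labels misprints 1 population, so groups were taken from the titles.

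Of 45101 probe sets, 64 controls, 9160 with no gene and 932 with several genes were left out. The remaining 34945 named 18193 genes, each represented by the probe set with the highest mean. Symbols were updated through gene IDs, except for 204 probe sets. Genes with a mean log2 intensity under 2.38, the 40th percentile of probe sets, were left out, and 13700 were tested. No normalization or pseudocount was added. limma 3.58.1 in R 4.3.3 fitted log2 intensity on all 12 arrays with 1 mean for each of 4 populations and the experiment letter as a fixed block, leaving 6 residual degrees of freedom, and p-values (two-sided) were adjusted by Benjamini-Hochberg over all genes with a threshold of 0.05. Figures were drawn with matplotlib 3.10.9.

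The pairing by letter was checked on deviations from the population means. Arrays of one letter correlated at 0.0945 to 0.404 (17 of 18 pairs above 0.1), and the double-positive and green-only arrays at 0.303, 0.326 and 0.117 in experiments A, B and C.

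The named genes are the reporter-linked factors and markers, the 10 largest increases and decreases among calls with no overlap and one sign in every experiment, and, in each of 28 lists, up to 4 members with the largest called difference and the brightest that did not pass. The members and lists were chosen with earlier results of these data known. Of the 1148 called genes, 596 had another probe set above the filter, which had the same sign for 534 and also an unadjusted p under 0.05 for 370. On simulated data for this comparison (10 simulations, 200 changed of 13700 genes) calls were made for 48.2% of changed genes at a log2 change of 0.5, 93% at 1, 99% at 2 and 99.8% at 3, and 4.12% of calls were false. Alternatives covered pseudocounts of 4.10 and 6.52, quantile normalization, median centring, other filters, the mean of a gene's probe sets, and an intensity trend with robust variances. Others were array weights, only the 6 arrays compared, no experiment block and a 2-fold minimum. Each double-positive array, each green-only array and each experiment was also left out. No red-only or double-negative array was left out singly, so the interaction was not checked against these.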

Additional observations from a re-analysis of the deposited data

Results flagged for a closer look

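The difference between double-positive and green-only cells was set against the difference between red-only and double-negative cells, and the limma interaction passed an adjusted p of 0.05 for the genes below. Each value is a log2 interaction, (double-positive minus green-only) minus (red-only minus double-negative). The count over all genes was 428 without experiment B and 888 without experiment C, and between 1300 and 2120 under the other alternatives run.

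Among regulators the interaction was negative for Mef2c (-2.46), Myocd (-2.10), Gata4 (-1.72), Nkx2-5 (-1.37), Isl1 (-1.09), Hand1 (-1.26) and Nrp2 (-2.03). The values of Mef2c and Nkx2-5 were not independent of the sort. Contractile genes with a negative value were Tnnt2 (-2.73), Actc1 (-2.27), Myh6 (-1.65), Acta2 (-1.64), Unc45b (-1.60) and Csrp3 (-1.36). Smpx (1.30) and Srl (0.88) had positive values, and Smpx lay near the floor in green-negative cells.

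The energy genes among them had positive interactions, at 2.07 for Fabp3, 1.39 for Idh3a, 1.28 for Cox7a1, 0.74 for Ckb and 0.70 for Cox5a. The interaction passed for 4 of 6 muscle energy and 4 of 12 mitochondrial genes that rose, all positive. Of 5 glycolysis genes that rose 1 had an interaction, which was negative, and of 2 that fell 1 had a positive one. Positive values were also found for Tdgf1 (2.81), Dnmt3b (1.89), Dppa5a (3.32) and the embryonic globins Hbb-y (4.25) and Hbb-bh1 (3.37). Of these only Tdgf1 was higher in double-positive than in green-only cells. Dnmt3b and both globins were lower there, and Dppa5a had a negative difference that did not pass. Their positive interactions mean that red-only minus double-negative was more negative still.

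Endothelial genes had negative interactions, at -3.71 for Ets1, -2.93 for Cdh5, -2.25 for Tie1, -2.24 for Adgrf5, -1.61 for Egfl7 and -1.26 for Lmo2. The other negative values were those of Fn1 (-2.01), Cpm (-1.95), Cdkn1c (-1.59), Id3 (-1.32), Vcan (-1.21), Mlf1 (-1.05), Apoe (-0.93), Fzd7 (-0.91), Smad1 (-0.75) and Notch3 (-0.59), the last at an adjusted p of 0.05 after rounding.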

How the results depend on the processing

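Of 125 genes followed singly, none had a called difference that changed sign under the alternatives run. With no replicate block (no pairing by experiment) 680 genes passed (322 higher, 358 lower), with only the 6 arrays compared 716 (315 and 401), and with a 2-fold minimum 241 (86 and 155). Leaving out arrays or experiments gave 342 to 906 calls (170 to 437 higher, 172 to 522 lower), the lowest without experiment B. With a 2-fold minimum the higher counts were 3 for cardiac regulators, 5 for thin filament, 9 for Z-disc, 6 for calcium, 0 for mitochondrial and 1 for glycolysis genes, and the lower counts 4 for pluripotency, 11 for endothelial, 1 for matrix, 0 for mitosis and 1 for Wnt genes. With no replicate block they were 2 (glycolysis, higher), 4 (pluripotency), 6 (endoderm), 11 (endothelial), 2 (matrix) and 5 (mitosis). With only the 6 arrays they were 4 (mitochondrial), 3 (matrix) and 2 (mitosis). Matrix genes numbered 3 with an intensity trend and robust variances, and mitosis genes 6 with the mean of all probe sets. With arrays or experiments left out the counts ranged from 3 to 10 (thick filament), 4 to 7 (thin filament), 9 to 13 (Z-disc), 7 to 11 (calcium), 0 to 10 (mitochondrial), 1 to 6 (glycolysis), 1 to 7 (pluripotency), 7 to 13 (endoderm), 3 to 19 (endothelial), 0 to 4 (matrix), 1 to 7 (mitosis) and 1 to 7 (Wnt), and the interaction count from 428 to 1916. The causes were not tested. Of the 125 genes, calls were ended for 39 without experiment B, 31 without experiment A, 32 without the double-positive array of A, 26 with no replicate block and 16 with only the 6 arrays compared, while array weights ended 6, quantile normalization 2 and median centring none. List medians without the green-only array of experiment A were chosen after seeing the data. The letters are not stated to be separate cultures, and signal near the floor of 2.09 units limits differences of dim genes.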
